A study of Mus musculus with 18 samples.

Results

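The trefoil factors *Tff1*, *Tff2* and *Tff3* and the gastrokines *Gkn1*, *Gkn2* and *Gkn3* encode secreted proteins of the gastric mucus, and their transcripts were followed through the cell types of the adult mouse stomach. The 6 genes were taken by name as the members of both families, and all 6 were found among the 31201 gene names of the count tables. Each gene was read in every annotated cell cluster of 2 datasets. Parietal cells, the acid-secreting cells, are not known as a source of these proteins and gave the level of free RNA, that is, of transcripts released into the cell suspension and caught with other cells.

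Cells were prepared from 10-week-old male wild-type C57BL/6J mice, sorted 1 per well into 384-well plates and measured by Quartz-Seq2, which marks the transcripts of a well with a well barcode and each molecule with a unique molecular identifier (UMI). Dataset 1 held cells of the corpus (the body of the stomach, which secretes acid) together with cells of the antrum, its distal part, from pools tube1 and tube2 on 3 plates each. Dataset 2 held corpus cells from pools K and T on 6 plates each. Every pool was made from 3 mice, no mice were treated, and the pools of a dataset were prepared by different operators, so that mice, preparation and operator cannot be told apart. Sorted cells of dataset 2 were positive for Hoechst and negative for the dead-cell dye ToPro3. For dataset 1 the labels name ToPro3 and the methods of the study name propidium iodide. Since corpus and antrum cells of dataset 1 shared a sort, only the cluster of a cell gives its region.

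The annotation held 491 cells in 15 clusters of dataset 1, with 204 cells of pool tube1 and 287 of pool tube2, and 3993 cells in 20 clusters of dataset 2, with 1950 cells of pool K and 2043 of pool T. The median depth was 38757 UMIs per cell in dataset 1 and 31020 in dataset 2. All plates used the same 384 well barcodes, so a cell was identified by plate and barcode together. The UMIs of all cells of 1 type and 1 pool were added up, and a level is the count of the gene per 1000000 UMIs of that sum (CPM). A UMI stands for a molecule, so levels of different genes on this scale do not depend on transcript length. Values for the pools are given in the order tube1, tube2 or K, T, and every type has n = 2 pools.

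Trefoil factors are small secreted peptides built around a disulfide-bonded loop structure, the trefoil domain, which makes them resistant to proteases. They are stored and released together with mucins: Tff1 with Muc5ac in the pit cells that line the gastric surface, Tff2 with Muc6 in the mucous neck cells deeper in the gland, and Tff3 with Muc2 in the goblet cells of the intestine. Gastrokines are secreted proteins with a BRICHOS domain, a fold that keeps other proteins from aggregating. Gkn1 and Gkn2 are products of surface mucous cells, Gkn2 binds Tff1 through a disulfide bond, and Gkn3 is known from mucous neck cells of the mouse. Pit cells and neck cells both descend from dividing progenitors in the isthmus of the gland, and chief cells, which make digestive enzymes, lie at its base.

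Each family forms a compact locus. On GRCm39 in GENCODE M39, *Tff3* (chr17:31344280-31348620, 3 exons), *Tff2* (chr17:31360023-31363262, 4 exons) and *Tff1* (chr17:31380369-31384251, 3 exons) lie on the minus strand within 40 kb between *Abcg1* and *Tmprss3*, with no other protein-coding gene among them. The long non-coding RNA *Gm15318* on the plus strand overlaps *Tff1*, and whether UMIs were counted by strand is not given in the sources used here. *Gkn1* (chr6:87322632-87327924, minus strand), *Gkn2* (chr6:87350339-87356479, plus strand) and *Gkn3* (chr6:87360238-87365917, minus strand) have 6 exons each and lie within 43.3 kb between *Antxr1* and *Bmp10*. *Gkn2* and *Gkn3* are the closer neighbours, with 3.8 kb between them, but *Gkn2* shared its pattern over cell types with *Gkn1*, as the levels below show.

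The 100 bases before the RefSeq start of each gastrokine gene are therefore shown, 5′ to 3′ on the strand of the gene, with letters of a searched motif in capitals. They were taken from the RefSeq promoter table (build GRCm38.p6) and placed on GRCm39 by exact match, at chr6:87327898-87327997 (minus) for *Gkn1*, chr6:87350247-87350346 (plus) for *Gkn2* and chr6:87365918-87366017 (minus) for *Gkn3*.
Gkn1: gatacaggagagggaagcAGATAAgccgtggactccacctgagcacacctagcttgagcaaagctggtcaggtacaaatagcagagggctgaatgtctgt
Gkn2: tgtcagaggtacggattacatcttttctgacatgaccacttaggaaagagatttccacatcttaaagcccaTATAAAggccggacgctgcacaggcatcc
Gkn3: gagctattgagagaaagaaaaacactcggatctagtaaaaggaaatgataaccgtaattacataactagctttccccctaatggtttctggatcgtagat
Over the 250 bases before the start, 4 motifs were searched on both strands: the TATA box TATAAA, the GATA factor motif AGATAA, the FOX factor motif TGTTTAC and the KLF factor motif CCACCC. *Gkn2* held TATAAA 29 to 24 bases before the start and *Gkn1* did not, whereas AGATAA was held by *Gkn1* 82 to 77 bases before the start and by *Gkn2* 218 to 213 bases before it. Distances are from the RefSeq start, at base 87327897 for *Gkn1* and 87350347 for *Gkn2*. GENCODE M39 starts these genes at 87327924 and 87350339, so that the last bases shown for both lie inside the GENCODE gene. For *Gkn3* the starts are the same. None of the 4 motifs was in the *Gkn3* window, and TGTTTAC and CCACCC were in none of the 3. Of 32851 RefSeq promoters, 12.4% held TATAAA, 10% AGATAA, 3.2% TGTTTAC and 28.1% CCACCC on either strand in a window of that length, so that a match is a description of the letters only.

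The labels of the dataset 2 types fitted their marker genes. In dataset 2 the parietal proton pump subunit *Atp4a* was at 21252 and 19971 CPM in parietal cells and at most 492 CPM in other types, the pit mucin *Muc5ac* was at 3973 and 4804 CPM in mature pit cells, and the neck mucin *Muc6* was at 1759 and 1755 CPM in neck cells. The chief cell product *Cblif* was at 15395 and 14699 CPM in chief cells, and the division gene *Mki67* was at 281 and 290.4 CPM in isthmus cells. In dataset 1 the antrum pit marker *Krt7* was at 771 and 956 CPM in antrum mature pit and 310 and 289 CPM in antrum pre-pit cells. Corpus pit cells held at most 22.6 CPM of it. *Krt20* did not separate the regions, with 62.2 and 118 CPM in antrum pre-pit and 114 and 50.6 CPM in corpus mature pit cells.

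UMIs of the abundant members were found in all types. In parietal cells of dataset 2, *Tff1* was at 319 and 289 CPM, *Gkn1* at 373 and 317, *Gkn2* at 370.2 and 317, and *Tff2* at 374 and 265, whereas *Gkn3* was at 2.73 and 2.85 and *Tff3* at 0.210 and 0.130. Tuft-like, macrophage-like and endothelial-like cells, of 32, 13 and 9 cells, held more, with *Gkn2* between 510.1 and 900.1 CPM. A level up to these values was therefore read as background. Parietal cells of dataset 1 held 275 and 196 CPM of *Tff1*, 239 and 170.2 of *Gkn2* and 161 and 286 of *Tff2*. Of the 675 *Tff2* UMIs of parietal cells in pool tube2, 1 cell held 602, and the mean *Tff2* level fell from 223 to 97.8 CPM without plate 2 of that pool. Several other clusters of dataset 1 held more. The smooth muscle-like cluster, of 6 and 12 cells, held 825 and 5430 CPM of *Gkn2*. The cluster with enterocyte markers, of 18 and 52 cells, held 1606 and 1070 CPM of *Gkn2*. That with endocrine markers, of 7 and 17 cells, held 261 and 1527 CPM. The source of these UMIs was not tested, and the background of dataset 1 may exceed the parietal level.

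**Figure D1:**
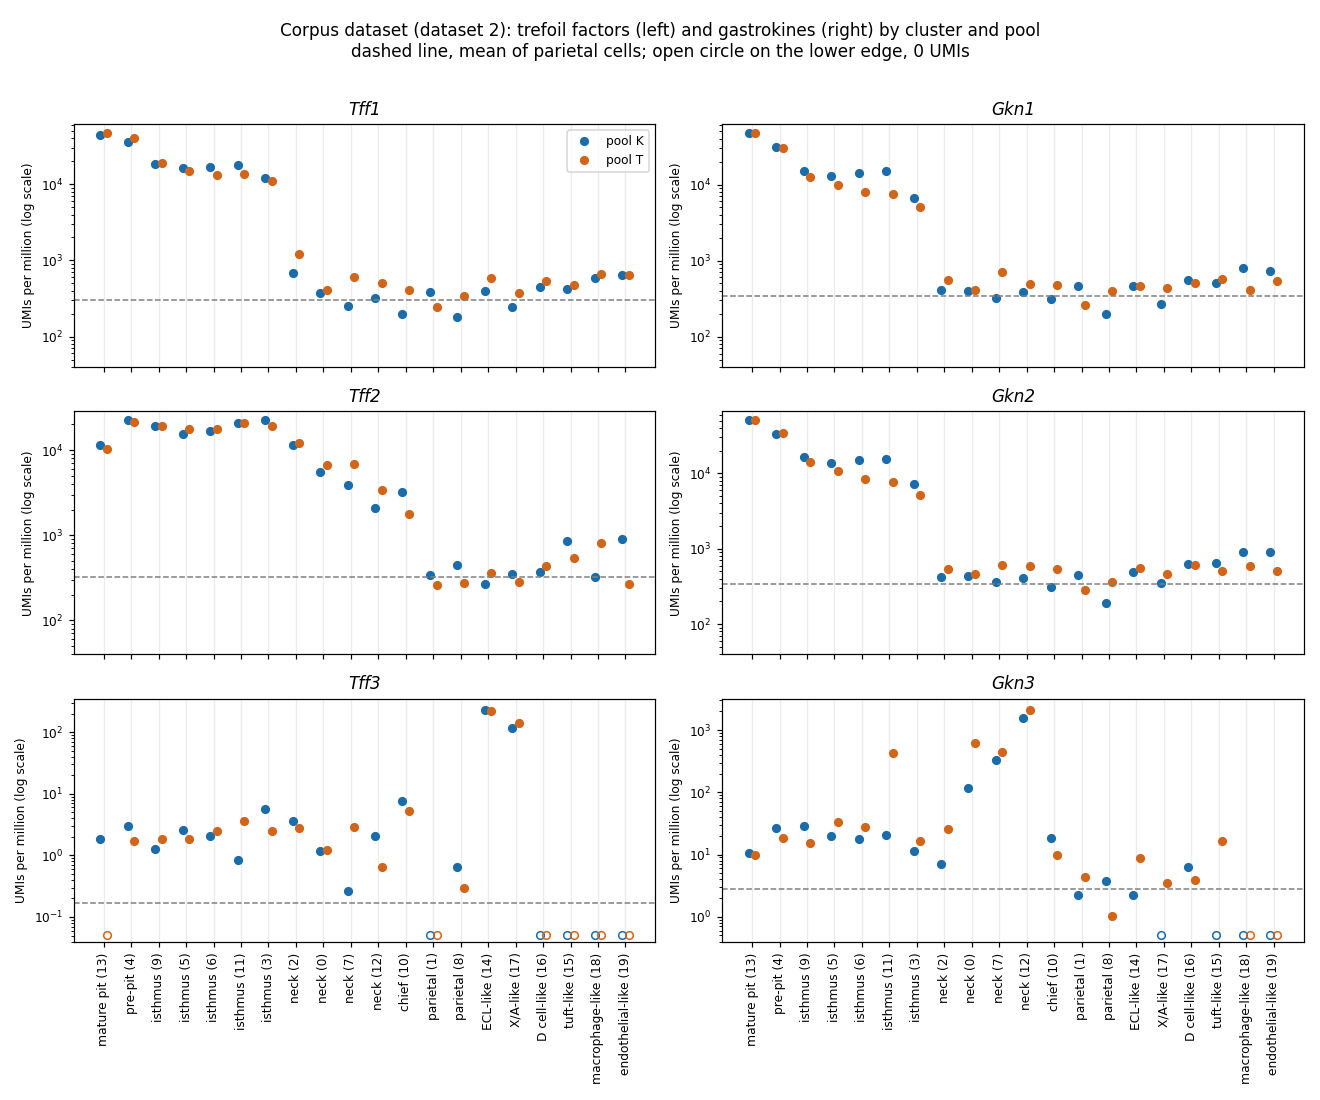
Level of each gene in every cluster of dataset 2 (y axis, CPM on a log scale; x axis, cluster with its number), 1 point per pool, K in blue and T in orange. *Tff1*, *Gkn1* and *Gkn2* stand at 5099 CPM or more in the pit and isthmus clusters and nearer the parietal mean (dashed line) elsewhere, with *Tff1* of neck cluster 2 above it at 693 and 1218 CPM, *Tff2* extends to neck and chief cells, *Gkn3* peaks in neck cluster 12 and *Tff3* in the endocrine clusters 14 and 17.

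*Tff1*, *Gkn1* and *Gkn2* were the transcripts of the pit lineage. In mature pit cells of dataset 2 (cluster 13, 53 and 68 cells), *Tff1* was at 44468 and 46686 CPM. *Gkn1* was at 47482 and 47123 CPM, and *Gkn2* at 50308 and 50359 CPM. The pools lay close together, and the 6 members made up 15.4% ± 0.0440 (SD, n = 2 pools) of all UMIs of these cells.

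In pre-pit cells (cluster 4, 134 and 157 cells), which lie between the isthmus and the mature pit, *Tff1* was at 36281 and 40029 CPM, *Gkn1* at 30848 and 30192, and *Gkn2* at 33491 and 34383. All of these values were below those of mature pit cells, and the 6 members held 12.5% ± 0.172 of the UMIs. In isthmus cells (clusters 3, 5, 6, 9 and 11, 567 and 718 cells), *Tff1* was at 15805 and 14129 CPM, *Gkn1* at 12025 and 8568, and *Gkn2* at 12880 and 9161. The pools overlapped neither with those of pre-pit cells nor with those of neck cells, in which *Tff1* was at 454 and 588 CPM, *Gkn1* at 381 and 481, and *Gkn2* at 407 and 504. Levels in neck cells were between 1.02 and 2.04 times those of parietal cells of the same pool, and among the neck clusters *Tff1* stood highest in cluster 2, at 2.17 and 4.22 times the parietal level.

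These steps were tested on the pool sums with edgeR's quasi-likelihood test. P-values were adjusted after Benjamini and Hochberg over the whole table, and a gene counts as called below an adjusted p of 0.05. Since the clusters were built by the authors from these counts, a p-value describes how far apart the clusters lie. Between pre-pit and isthmus cells 3 of the 6 members were called higher and none lower, against 27.8% of the 13894 genes tested called in either direction. *Gkn2* was 3.57-fold higher in pre-pit cells (log2 fold change 1.84 ± 0.22 (SE), adjusted p = 3.34e-05). *Gkn1* was 3.43-fold higher (1.78 ± 0.19, adjusted p = 1.35e-05), and *Tff1* 2.96-fold higher (1.56 ± 0.24, adjusted p = 2.67e-04).

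Between mature pit and pre-pit cells 1 member was called higher and 1 lower, against 10.4% of genes. *Gkn1* was 1.70-fold higher in mature pit cells (log2 fold change 0.77 ± 0.19, adjusted p = 0.0202). *Gkn2* was 1.63-fold higher (0.70 ± 0.22) and missed the threshold at an adjusted p of 0.0542, but passed it with the pool as a block (adjusted p = 0.0239), which compares the types within the same mice. *Tff1* had a log2 fold change of 0.39 ± 0.23 (adjusted p = 0.339).

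*Tff2* followed a different course. In dataset 2 it was at 18627 and 18532 CPM in isthmus cells and at 22799 and 21255 CPM in pre-pit cells, and at 11594 and 10307 CPM in mature pit cells. Neck cells held 6860.4 and 7352 CPM, chief cells 3208 and 1760 CPM, and parietal cells 374 and 265 CPM. The highest levels were thus found in pre-pit and isthmus cells, and neck and chief cells stayed above parietal cells in both pools, by 18.3 and 27.8 times and by 8.58 and 6.65 times. *Tff2* fell by 0.87 ± 0.21 on the log2 scale from pre-pit to mature pit cells (adjusted p = 0.0168, lost at 0.0533 when plate 5 of pool T was left out). Its difference between pre-pit and isthmus cells was not called (log2 fold change 0.46 ± 0.21, adjusted p = 0.122).

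The comparison of neck with isthmus cells set the mucous neck cells against the cells of the progenitor zone. Here 1 member was called higher in neck cells and 4 lower, against 50.7% of genes. *Tff2* was 2.50-fold lower in neck cells (log2 fold change -1.32 ± 0.21, adjusted p = 1.63e-04). *Tff1*, *Gkn1* and *Gkn2* had log2 fold changes of -4.78, -4.51 and -4.53, with the neck level near background. *Gkn3* was the member called higher, by 10.8-fold (3.43 ± 0.48, adjusted p = 5.06e-05). Its log2 fold change was 4.41 without plate 3 of pool T, where isthmus cells held 288 CPM against a median of 22.2 on the other plates of that pool, and it was also larger by over 1.5 times in fold with the plates of pool K alone.

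Within neck cells *Tff2* was graded. Cluster 2 held 11487 and 12173 CPM of *Tff2*, cluster 0 held 5467 and 6730.0, cluster 7 held 3862 and 6936, and cluster 12, the neck cluster with the highest *Cblif* (8538 and 9847 CPM), held 2082 and 3424. *Muc6* did not run parallel, with 870 and 1077 CPM in cluster 2 and 3436 and 3499 CPM in cluster 7. Between cluster 12 and the other neck clusters 1 member was called higher and 1 lower, against 10.3% of 12922 genes. *Tff2* was 2.25-fold lower in cluster 12 (log2 fold change -1.17 ± 0.23, adjusted p = 1.04e-03).

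Between chief and neck cells 3 members were called higher and 2 lower, against 38.5% of genes. *Tff2* was 1.63-fold lower in chief cells (log2 fold change -0.71 ± 0.21, adjusted p = 0.0159), a call that was lost without plate 4 of pool K (adjusted p = 0.0778) and with the plates of pool K alone (-0.29, adjusted p = 0.335), whereas the plates of pool T alone gave -1.32. The fitted fold was smaller than that of the CPM values in either pool. *Gkn1* (0.71 ± 0.19, adjusted p = 0.0104) and *Gkn2* (0.71 ± 0.22, adjusted p = 0.0197) were called higher in chief cells, at 317 and 479 CPM and at 307 and 537 CPM. On the CPM scale *Gkn1* was not higher in chief than in neck cells of either pool, where neck cells held 381 and 481 CPM. *Gkn2* was higher in pool T only, with 407 and 504 CPM in neck cells. Both genes were near the level of parietal cells. The share of chief cells with more *Gkn2* than the 95th percentile of parietal cells was 6.67% (95% Clopper-Pearson interval 3.49 to 11.4%, counting error only), against 5.13% of parietal cells.

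**Figure D2:**
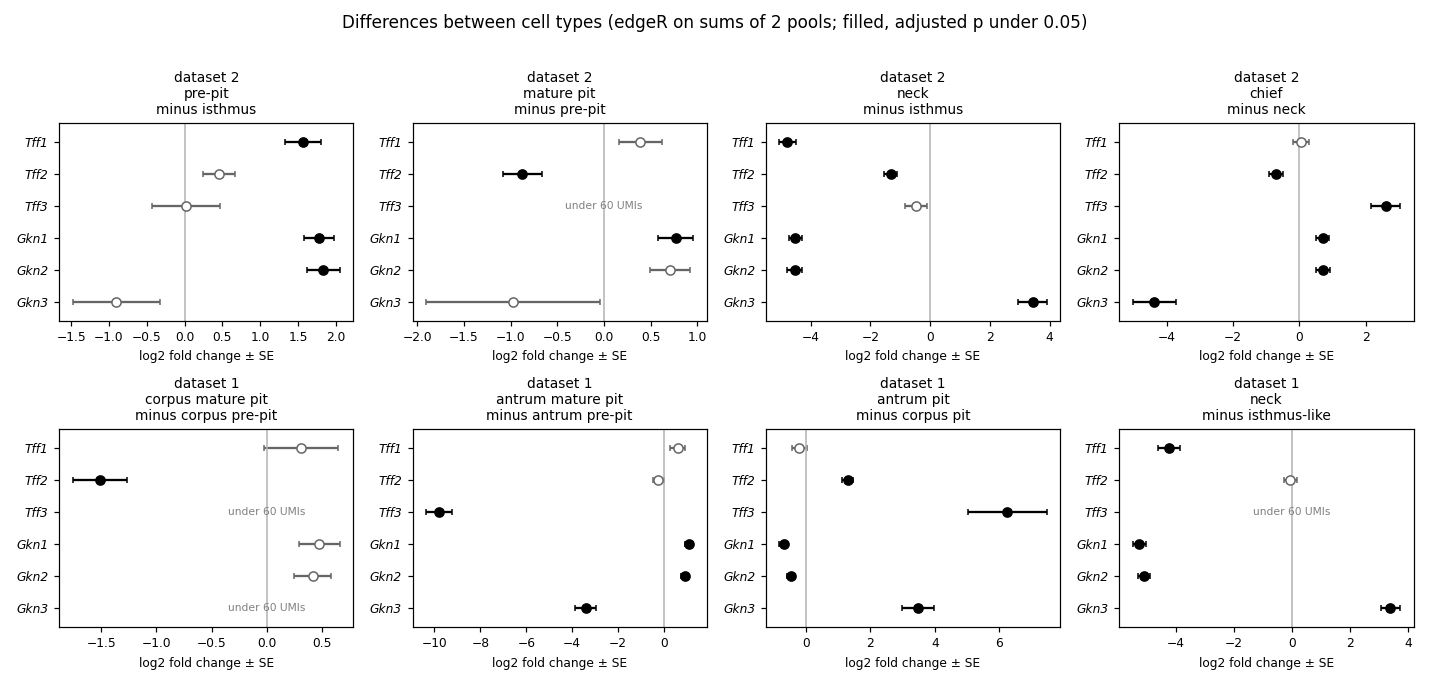
Log2 fold change of each gene (x axis, edgeR on the sums of 2 pools; bars, ± SE) in 4 comparisons of dataset 2 and 4 of dataset 1, filled where the adjusted p was under 0.05; members with fewer than 60 UMIs in both types together are marked and not drawn, and panels have different scales. *Tff1*, *Gkn1* and *Gkn2* lie to the left and *Gkn3* to the right in both comparisons of neck with isthmus cells, and *Tff2* lies to the left from pre-pit to mature pit cells of the corpus. Between neck and isthmus cells *Tff2* lies at -1.32 in dataset 2 and at -0.05 in dataset 1. The *Tff3* points of the antrum rest on 2 cells.

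The step from pre-pit to mature pit cells was also measured in dataset 1, from other mice. In corpus pre-pit cells (26 and 20 cells) *Tff2* was at 12442 and 14086 CPM, and in corpus mature pit cells (13 and 13 cells) at 2781 and 5431 CPM, with no overlap between the types. It was the only member called between them, lower by 2.86-fold in mature pit cells (log2 fold change -1.51 ± 0.24, adjusted p = 4.62e-04), against 12.9% of 10229 genes. With the plates of pool tube2 alone the log2 fold change was as large, at -1.58, but no longer called (adjusted p = 0.230), and with those of pool tube1 alone it was -2.52. *Gkn1*, at 35723 and 42566 CPM in pre-pit and 48528 and 46944 CPM in mature pit cells, had a log2 fold change of 0.47 ± 0.19 (adjusted p = 0.104).

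In the antrum 2 members were called higher and 2 lower in mature pit than in pre-pit cells, against 13.9% of genes. *Gkn1* was at 18354 and 22528 CPM in antrum pre-pit cells (18 and 14 cells) and at 36673 and 35184 CPM in antrum mature pit cells (29 and 20 cells), a 2.12-fold rise (log2 fold change 1.08 ± 0.19, adjusted p = 7.76e-04). *Gkn2* was at 25276 and 31589 CPM and at 43707 and 43581 CPM, a 1.85-fold rise (0.89 ± 0.17, adjusted p = 1.52e-03). Both were no longer called with the plates of pool tube2 alone (adjusted p = 0.423 and 0.630), and *Gkn2* not without plate 1 of pool tube2 (adjusted p = 0.108). *Tff2* was at 21563 and 22478 CPM in pre-pit and at 13803 and 16766 CPM in mature pit cells, with a log2 fold change of -0.26 ± 0.24 (adjusted p = 0.544). This value was 0.079 with the plates of pool tube1 alone.

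Whether maturation differed between antrum and corpus was tested with an interaction term, which called none of the 6 members and 3 genes, or 0.0293%, of all. The estimated *Tff2* change from pre-pit to mature pit cells was less negative in the antrum by 1.26 ± 0.34 on the log2 scale. This difference was not called (edgeR, adjusted p = 0.337). It ranged from 0.95 to 2.59 with a plate or pool left out, the highest value from the plates of pool tube1 alone. With the pool as a block the adjusted p was 0.0291. At an unadjusted p under 0.05 edgeR passed *Tff2*, *Tff3* and *Gkn1*, and DESeq2 gave *Tff2* an adjusted p of 0.0765. *Tff3* also passed with DESeq2 (adjusted p = 4.37e-11) and with the block (adjusted p = 7.25e-04), but 2 cells hold its antral UMIs, as described below.

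Antrum and corpus pit cells were then compared over both stages, which called 3 members higher and 2 lower in the antrum, against 9.26% of genes. The pre-pit clusters of the regions were not alike in their markers. *Mki67* was at 37.3 and 28.9 CPM in antrum and 11.5 and 9.03 CPM in corpus pre-pit cells, and *Muc5ac* at 3847 and 3996 against 5055 and 6895 CPM. The part of stage in the differences between the regions, those of maturation included, was not tested. *Tff2* was 2.47-fold higher in antrum pit cells (log2 fold change 1.31 ± 0.17, adjusted p = 4.53e-05). *Gkn1* was 1.61-fold lower (-0.69 ± 0.13, adjusted p = 1.82e-03). *Gkn2* was 1.37-fold lower (-0.46 ± 0.12, adjusted p = 0.0175), a call that was lost when any of 4 of the 6 plates was left out (adjusted p of 0.0527 to 0.341), with the plates of either pool alone (0.144 and 0.636) and with plates as the unit (adjusted p = 0.171). The call of *Gkn1* was lost without plate 1 of pool tube2 (adjusted p = 0.0764) and with the plates of pool tube2 alone (adjusted p = 0.355), and that of *Tff2* with the plates of pool tube2 alone (adjusted p = 0.165). *Tff1*, at 48848 and 49165 CPM in antrum and 53473 and 50797 CPM in corpus mature pit cells, was not called (log2 fold change -0.20 ± 0.24, adjusted p = 0.706). Of 17 gastric epithelial factors tested in this comparison, 5 were called higher and 2 lower. *Pdx1* and *Nkx6-3*, transcription factors known for the antrum, were 3.88 ± 0.47 and 3.84 ± 0.39 higher on the log2 scale (adjusted p = 2.05e-05 and 2.27e-06). *Klf5* (0.52 ± 0.11), *Klf4* (0.39 ± 0.11) and *Foxq1* (0.31 ± 0.09) were the others called higher, and *Il6st* (-0.93 ± 0.18) and *Gata4* (-0.40 ± 0.10) were called lower.

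**Figure D3:**
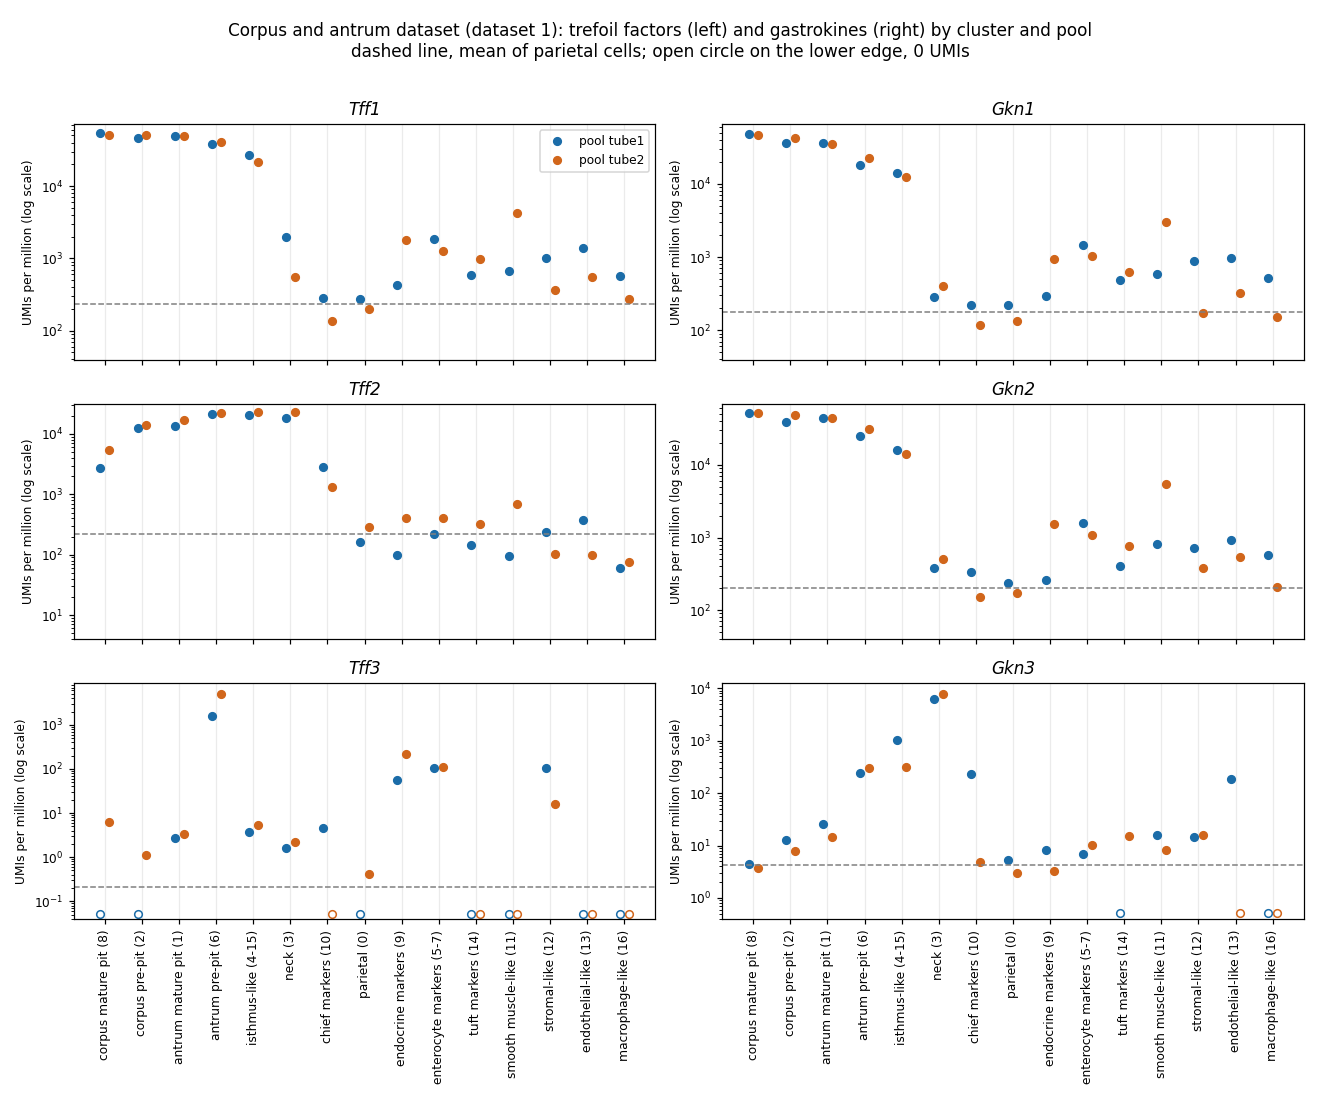
Level of each gene in every cluster of dataset 1 (y axis, CPM on a log scale; x axis, cluster with its number), 1 point per pool, tube1 in blue and tube2 in orange, with the parietal mean as a dashed line. *Tff2* is lowest among the pit clusters in corpus mature pit cells (2781 and 5431 CPM), *Gkn3* is highest in neck cells (6352 and 7659 CPM) and *Tff3* in antrum pre-pit cells, where single cells held nearly all of its UMIs. Open circles on the lower edge mark sums with 0 UMIs.

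Isthmus cells were not uniform in these genes. Each of the 1285 isthmus cells of dataset 2 was compared with the 95th percentile of parietal cells, a share of about 5% by construction in parietal cells. *Tff2* was above it in 97.2% of isthmus cells (95% Clopper-Pearson interval 96.1 to 98.0%), *Tff1* in 65.6% (62.9 to 68.2%), *Gkn1* in 52.6% (49.8 to 55.4%) and *Gkn2* in 49.0% (46.3 to 51.8%). In pre-pit cells *Tff2* was above it in all 291 cells and *Gkn2* in 93.8% (90.4 to 96.3%), and in neck cells *Tff2* in 78.3% (76.0 to 80.6%) and *Gkn2* in 10.1% (8.49 to 11.9%). These shares depended on the limit. Above the 99th percentile of parietal cells lay 88.1% of isthmus cells for *Tff2* and 37.6% for *Gkn2*, and only 34.3% of neck cells for *Tff2* and 1.60% for *Gkn2*. The medians of depth were 37426 UMIs in isthmus, 32262 in pre-pit, 22530.0 in neck and 47647 in parietal cells. At the 95th percentile nearly all isthmus cells thus carried *Tff2* above background, and about as many carried it with *Gkn2* (48.9%) as without (48.3%).

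The same cells were grouped by their mucins with the 95th percentile as the limit, and *Gkn2* was highest with *Muc5ac* alone. Isthmus cells with *Muc5ac* alone (257 and 323 cells) held 23641 and 17632 CPM of *Gkn2*, those with *Muc6* alone (185 and 238 cells) held 429.9 and 310.04, and those with both (97 and 118 cells) held 3991 and 2240.0. Cells with neither mucin above the limit (28 and 39 cells) held 1965 and 2467 CPM. The median cell held only 5.59 and 3.93 *Gkn2* UMIs per 10000 with both mucins and 2.58 and 2.89 with neither, below the limit of 7.47, so that the greater part of these cells was at background. The *Muc6* group was at the level of parietal cells, and the groups with both mucins and with neither were far below the *Muc5ac* group. *Tff2*, in contrast, was at 20770 and 20937 CPM with *Muc5ac* alone, at 11167 and 11814 with *Muc6* alone and at 24724 and 23132 with both. Within 2-fold of the limit lay 133 cells for *Muc5ac* and 284 for *Muc6*, and the median depth of the groups was between 31386 and 43301 UMIs. In each pool *Tff2* was lowest with *Muc6* alone. The groups were made from the counts of the same cells, and no test was run on them.

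**Figure D4:**
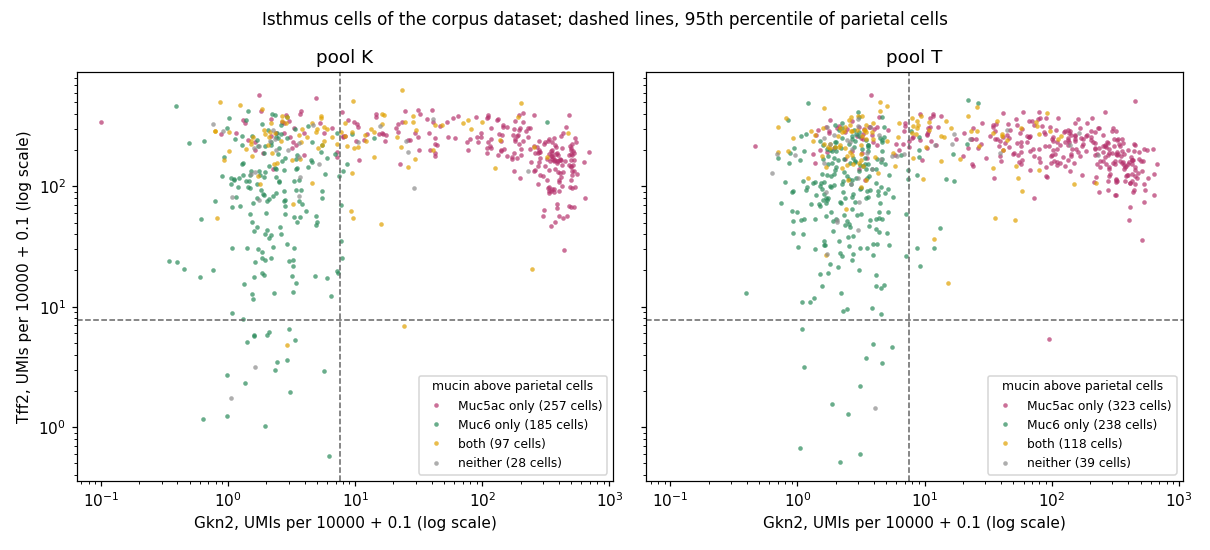
*Tff2* against *Gkn2* in single isthmus cells of dataset 2 (both axes, UMIs per 10000 UMIs of the cell plus 0.1, log scale), 1 panel per pool, coloured by which of *Muc5ac* and *Muc6* exceeded the parietal 95th percentile. Cells with *Muc6* alone lie mostly left of the *Gkn2* limit (dashed vertical line), cells with *Muc5ac* alone extend to the right, and 97.2% of cells lie above the *Tff2* limit (dashed horizontal line).

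Cell by cell, *Gkn1* and *Gkn2* ranked nearly alike, with a Spearman rho of 0.914 in 567 and 0.917 in 718 isthmus cells and of 0.977 and 0.979 in pre-pit cells. *Tff2* ranked against *Gkn2* in pre-pit cells (rho -0.701 in 134 and -0.585 in 157 cells) and with smaller values in mature pit cells (-0.302 and -0.293), and was weakly positive in isthmus cells (0.144 and 0.185). These correlations describe cells of 1 library type that share depth and free RNA, and genes that take a large share of the UMIs of a cell also lower the share left to others.

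The isthmus clusters differed among themselves. Cluster 5 had the highest *Mki67* (521 and 501 CPM) and held 15446 and 17555 CPM of *Tff2*, the lowest of the isthmus clusters in pool K, and cluster 3, with 42.7 and 45.9 CPM of *Mki67*, held 22291 and 19211 CPM. Cluster 3 also held the least *Gkn2*, at 7305 and 5117 CPM, against 16736 and 14193 CPM in cluster 9. Between cluster 11, the isthmus cluster with least *Stmn1*, and the other isthmus clusters 1 member, *Gkn3*, was called higher and none lower, against 29.4% of genes. Its level was 20.4 CPM in pool K and 423 CPM in pool T, where 1 cell held 1034 of the 1624 UMIs. The log2 fold change of 3.47 ± 0.51 (adjusted p = 1.18e-05) became 2.52 without the cell with most *Gkn3* in each group and pool (adjusted p = 1.11e-03), 0.45 without plate 3 of pool T (adjusted p = 0.599), 0.15 without pool T (adjusted p = 0.917) and 4.17 without pool K.

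*Gkn3* was the neck cell gastrokine of both datasets, and it was carried by a part of the neck cells. In dataset 1 it was at 6352 and 7659 CPM in neck cells (20 and 25 cells), at 1025 and 322 CPM in isthmus-like cells, and at 5.38 and 2.96 CPM in parietal cells. In dataset 2 it was at 324 and 660.3 CPM in neck cells, at 18.5 and 76.6 in isthmus cells and at 2.73 and 2.85 in parietal cells. The neck sums were the highest in both pools of both datasets. The level of dataset 1 neck cells was well above that of dataset 2, although the preparations differed and the datasets were not tested against each other. Dataset 1 also held antrum cells, and whether its neck and isthmus-like clusters included some of them was not tested. *Aqp5* was likewise higher in neck cells of dataset 1, at 198 and 385 CPM against 64.9 and 115 CPM in dataset 2. *Krt7*, named by the study as a marker of antrum pit cells, overlapped between the neck cells of the datasets. In isthmus-like cells of dataset 1 it was higher, at 98.7 and 44.8 CPM, than in isthmus cells of dataset 2, at 18.7 and 27.8 CPM. *Krt20*, also named by the study as such a marker, was lower there, at 2.99 and 0.590 CPM against 4.81 and 3.83 CPM.

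In dataset 1, neck against isthmus-like cells called 1 member higher and 3 lower, against 29.3% of genes. *Gkn3* was 10.5-fold higher in neck cells (log2 fold change 3.39 ± 0.33, adjusted p = 4.98e-07), with 2.27 from the plates of pool tube1 alone and 4.45 from those of pool tube2. *Gkn1* and *Gkn2* were 38.0- and 34.0-fold lower (adjusted p = 1.97e-11 and 6.20e-12), with the neck level at 1.27 to 3.09 times that of parietal cells. The mean neck levels of *Gkn1* and *Gkn2*, 347 and 444 CPM, were as low as 212 and 274 CPM with 1 plate left out. *Tff1* was lower as well (log2 fold change -4.22 ± 0.38), and 1 neck cell of pool tube1 held 1034 of the 1240.0 *Tff1* UMIs there. Its log2 fold change was -5.56 without plate 1 of pool tube1 and was also larger in size, by over 1.5 times in fold, with the plates of pool tube2 alone. *Tff2*, at 18514 and 23550.3 CPM in neck and 20589 and 23176 CPM in isthmus-like cells, had a log2 fold change of -0.05 ± 0.24 (adjusted p = 0.908). The lower *Tff2* of neck cells called in dataset 2 was thus not seen in dataset 1.

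Among the neck clusters of dataset 2, *Gkn3* was at 1547 and 2117 CPM in cluster 12, at 119 and 621 in cluster 0, at 333 and 443 in cluster 7 and at 7.14 and 25.3 in cluster 2. The order was the same in both pools for clusters 12 and 2, at its ends, and differed for clusters 0 and 7. *Gkn3* was 17.1-fold higher in cluster 12 than in the other neck clusters (log2 fold change 4.098 ± 0.49, adjusted p = 2.90e-06, 4.17 without the top cell of each group and pool and 4.79 with the plates of pool K alone). The fit averages the log levels of the other 3 clusters, the low levels of cluster 2 among them, and on the CPM scale cluster 12 stood above clusters 0 and 7 by less than this fold in both pools. Chief cells, at 18.5 and 9.66 CPM, were 20.9-fold below neck cells (log2 fold change -4.39 ± 0.65, adjusted p = 1.11e-04), with -3.26 from the plates of pool K alone and -5.25 from those of pool T.

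Outside cluster 2, cells with at least 10 *Gkn3* UMIs carried most of it. In cluster 12 they were 23 of 99 cells of pool K with 98.4% of the *Gkn3* UMIs and 27 of 74 cells of pool T with 97.9%. In cluster 2 there were 0 of 236 cells, which allows a share of up to 1.27%, and 1 of 111 cells, with 19.0% of the UMIs. In clusters 0 and 7 such cells were 5 of 135 and 44 of 336 cells and 22 of 174 and 15 of 82 cells, with 84.2% and 97.5% and with 91.9% and 91.9% of the UMIs. In dataset 1 there were 8 of 20 and 14 of 25 neck cells, with 99.3% and 99.96% of the UMIs. At least 1 UMI was found in 39 of 99 and 48 of 74 cells of cluster 12 and in 12 of 20 and 17 of 25 neck cells of dataset 1, against 4 of 17 and 7 of 40 parietal cells of dataset 1. The median depth in dataset 1 was 29072 UMIs in neck and 64127 in parietal cells. The carriers of dataset 1 held 30965 and 32310.4 CPM of *Tff2* and 3486 and 3684 CPM of *Muc6*, and the other neck cells 5474 and 11688 CPM of *Tff2* and 528 and 1635 CPM of *Muc6*. In cluster 12 of dataset 2 the carriers held 2333 and 4935 CPM of *Tff2* against 1994 and 2521 CPM in the rest, and *Muc6* was at 2250 and 2734 CPM against 1321 and 1138 CPM. Their *Tff2* was also higher in cluster 7 (5158 and 8634 against 3655 and 6559 CPM) and in cluster 0 of pool T (10323 against 6183 CPM), but lower in cluster 0 of pool K (4263 against 5515 CPM) and in the 1 carrier of cluster 2 (5536 against 12237 CPM). Carriers and other cells had median depths of 41319 and 26620 UMIs in pool tube1 and of 30393 and 31749 UMIs in pool tube2.

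**Figure D5:**
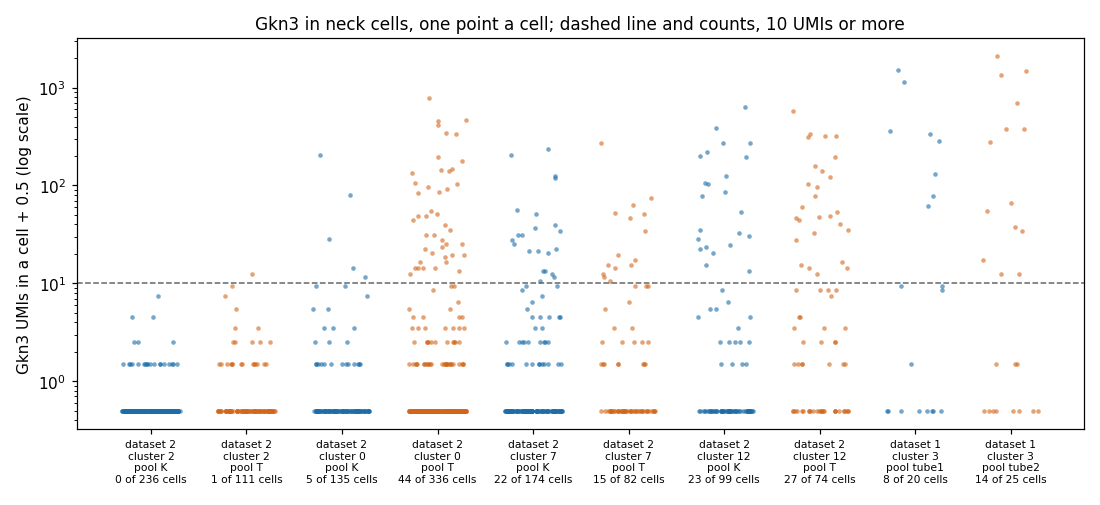
*Gkn3* UMIs in single neck cells (y axis, UMIs plus 0.5, log scale; 1 point per cell, with random horizontal spread) in the 4 neck clusters of dataset 2 and the neck cluster of dataset 1, by pool. Cells with at least 10 UMIs (dashed line) are 23 of 99 and 27 of 74 in cluster 12, 0 of 236 and 1 of 111 in cluster 2, and 8 of 20 and 14 of 25 in dataset 1.

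*Gkn3* was also found in the antrum. It was at 245 and 306 CPM in antrum pre-pit cells and at 26.0 and 14.3 CPM in antrum mature pit cells, against 12.9 and 7.91 CPM in corpus pre-pit and 4.40 and 3.80 CPM in corpus mature pit cells. The antrum pre-pit cells stood above the other pit types in both pools. From antrum pre-pit to mature pit cells *Gkn3* fell by 3.42 ± 0.44 on the log2 scale (adjusted p = 6.68e-05), with -2.79 (adjusted p = 0.0540) from the plates of pool tube1 alone, -4.25 from those of pool tube2 and a value between -3.42 and -4.25 without plate 1 of pool tube1. In antrum mature pit cells of pool tube1, 1 cell held 33 of the 49 *Gkn3* UMIs. The mean level of this type was as low as 12.1 CPM with 1 plate left out. Without the cell with most *Gkn3* UMIs in each group and pool, the log2 fold change was -4.38 and stayed called. Over both stages *Gkn3* was 11.1-fold higher in antrum than in corpus pit cells (3.47 ± 0.49, adjusted p = 9.80e-05, and 0.119 and 0.0691 with the plates of either pool alone). This log2 fold change was 2.86 without plate 1 and 4.13 without plate 3 of pool tube1. In antrum pre-pit cells 8 of 18 and 5 of 14 cells held at least 10 UMIs.

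*Tff3*, the trefoil factor of goblet cells, was nearly absent from the gastric epithelial types. In dataset 2 it was at 7.70 and 5.22 CPM in chief cells, at 2.96 and 2.37 in isthmus cells, at 3.05 and 1.71 in pre-pit cells and at 1.99 and 1.64 in neck cells. Chief cells held 20 and 20 UMIs of *Tff3* in all, and were called above neck cells (log2 fold change 2.60 ± 0.44, adjusted p = 3.47e-04), a larger fold than that of the CPM values in either pool, with at most 6 UMIs in a cell. The highest sums of dataset 2 were in endocrine cells: cluster 14, called ECL-like for *Hdc* (7020.5 and 4466 CPM), *Slc18a2* and *Chga*, held 231 and 221 CPM, with a UMI in 17 of 22 and 26 of 31 cells. Cluster 14 also held *Ghrl*, the marker of X/A cells, at 17201 and 25896 CPM. Cluster 17, X/A-like for *Ghrl* (193132 and 205172 CPM), *Mboat4* and *Chga*, held 118 and 142 CPM of *Tff3*. In cluster 17 1 cell of each pool held 60% and 50% of the UMIs. No *Tff3* UMI was found in the D cell-like cluster 16, of 12 and 19 cells. In dataset 1 the cluster with endocrine markers (7 and 17 cells) held 57.1 and 216 CPM and that with enterocyte markers (18 and 52 cells) 103 and 108 CPM, of which 1 cell of pool tube1 held 93.2% and 1 of pool tube2 56.5%.

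The *Tff3* level of antrum pre-pit cells, 1581 and 4881 CPM, came from 1 cell in each pool. These cells held 1142 of 1144 and 2358 of 2361 *Tff3* UMIs of the cluster. They carried 218 and 833 UMIs of the goblet cell mucin *Muc2*, 232 and 1186 of *Clca1* and 94 and 296 of *Spink4*, together with 644 and 3679 of *Zg16* and 1167 and 1720 of *Fcgbp*. *Muc5ac* was at 0 UMIs in both, and *Tff1* at 11 and 8 UMIs. The other 17 and 13 cells of the cluster had no *Muc2* UMI, 3911 and 4283 CPM of *Muc5ac*, and 2 and 3 *Tff3* UMIs. They held *Clca1* at 43.6 and 124 CPM and *Spink4* at 98.4 and 199 CPM. *Tff3* therefore stood with *Muc2* in 2 of 32 cells. The called fall of *Tff3* by 9.79 on the log2 scale from antrum pre-pit to mature pit cells (adjusted p = 1.14e-08), and its 76.1-fold higher level in antrum than corpus pit cells (adjusted p = 2.18e-03), rest on these cells. Without them 5 UMIs of *Tff3* were left in antrum pre-pit cells, too few for a fold change. With single plates left out, those holding the 2 cells aside, the log2 fold changes reached -10.53 (without plate 1 of pool tube1) and 7.79 (without plate 2 of pool tube2). Of 11 mucus genes tested from antrum pre-pit to mature pit cells, 2 were called higher, *Psca* (2.22 ± 0.16) and *Muc5ac* (1.45 ± 0.16), and 4 lower, against 13.9% of all genes. *Muc2*, *Zg16*, *Muc13* and *Fcgbp* were those called lower, by log2 fold changes of -7.70, -6.82, -6.50 and -2.41. The 2 cells held most of the UMIs of *Muc2*, *Zg16* and *Fcgbp* in antrum pre-pit cells, where the others had 21 and 9 *Fcgbp* UMIs, and these falls were not tested without the 2 cells.

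Genes that work with the 6 members were followed in the same fits as lists, described by counts. Of 12 mucus genes, 9 were tested in dataset 2. From isthmus to pre-pit cells 2 were called higher, *Muc5ac* (log2 fold change 1.28 ± 0.28) and *Psca* (1.28 ± 0.13), and 2 lower, *Muc6* (-3.38 ± 0.30) and *Fcgbp* (-1.43 ± 0.46), with a median of 0.05 over the list against 0.0022 over all genes, of which 27.8% were called. From pre-pit to mature pit cells *Psca*, *Muc1*, *Muc5b* and *Muc6* were called higher and none lower, against 10.4% of all genes, with a median of 1.29 against -0.0248. *Psca* encodes a surface protein of the pit, *Muc1* a mucin of the cell membrane, and *Muc5b* and *Muc6* gel-forming mucins. *Muc6* stayed low there, at 38.8 and 64.6 CPM in mature pit cells against 17.1 and 26.0 CPM in parietal cells. In neck cells *Muc6* (2.89 ± 0.25) and *Agr2* (1.36 ± 0.17), a disulfide isomerase needed for mucin folding, were called higher than in isthmus cells, and *Muc5ac* (-4.61 ± 0.32), *Muc5b* and *Psca* lower, 5 of 9 against 50.7% of all genes. In cluster 11 *Muc4* (5.37 ± 0.57) and *Clca1* (6.99 ± 0.93) were called higher and *Muc6* lower, among 9 tested and against 29.4% of all genes. In the antrum 5 of 11 mucus genes tested were called higher than in corpus pit cells, *Fcgbp*, *Zg16*, *Muc4*, *Clca1* and *Agr2* (0.77 ± 0.11), and *Muc1* (-1.08 ± 0.14) and *Psca* (-1.19 ± 0.11) lower, with a median of 4.23 over the list and 9.26% of all genes called. *Fcgbp*, *Zg16* and *Clca1* were abundant in the 2 *Tff3* cells described above, which held 232 and 1186 *Clca1* UMIs against 31 and 56 in the other antrum pre-pit cells, so that these calls and the median of the list are not independent of the 2 cells.

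Receptors proposed for trefoil factors were fewer. Of 6 such genes, 4 were tested in dataset 2, and *Lingo2* and *F2rl3* did not pass the filter on low counts. *Cxcr4* (-3.42 ± 0.88) and *Ackr3* (-1.62 ± 0.53), chemokine receptors linked to Tff2 and Tff3, were called lower in pre-pit than in isthmus cells, and *Egfr* higher (0.41 ± 0.11), against 27.8% of all genes called. From neck to chief cells *Ackr3* (-2.52 ± 0.66), *F2rl1* (-2.29 ± 0.14) and *Egfr* (-1.51 ± 0.21) were called lower and none higher, against 38.5% of all genes. From pre-pit to mature pit cells none of the 4 was called. The other genes with a BRICHOS domain had 3 of 7 tested in dataset 2, and *Itm2a* (2.12 ± 0.48), *Itm2b* (0.28 ± 0.09) and *Itm2c* (1.33 ± 0.09) were all called higher in neck than in isthmus cells, where 50.7% of all genes were called, as was *Gaa* (1.02 ± 0.08), the lysosomal glucosidase with a trefoil domain and the 1 of 4 such genes tested.

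Of 18 transcription and signalling factors of the gastric epithelium, 16 were tested in dataset 2. Between pre-pit and isthmus cells 6 were called higher, among them *Klf4* (0.79 ± 0.14), *Foxa3* (0.73 ± 0.11) and *Gata5* (0.62 ± 0.11), and 3 lower, *Sox2* (-0.61 ± 0.11), *Spdef* (-0.51 ± 0.10) and *Klf5* (-0.36 ± 0.10), against 27.8% of all genes. Between neck and isthmus cells 6 were higher and 3 lower, 9 of 16 and close to the 50.7% of all genes, with *Spdef*, a factor known for mucous cell maturation, at 1.54 ± 0.09 and *Klf4* at -1.79 ± 0.14. From neck to chief cells 8 were called lower and none higher, with *Foxq1*, known for *Muc5ac* expression, at -2.73 ± 0.16 and *Klf5* at -2.30 ± 0.12, against 38.5% of all genes. Between mature pit and pre-pit cells only *Foxa3* (0.73 ± 0.12) was called, against 10.4% of all genes.

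The genes most like each member were taken by the Pearson correlation of log2(CPM + 1) over the 28 sums of the 14 epithelial clusters and 2 pools of dataset 2, leaving out the other members. The sums share libraries and free RNA, and the correlation is a description with no p. For *Tff1* these were *Aldh3a1* (r = 0.993), *Gsta1*, *Sh3rf2*, *Adh7* and *Muc5ac*. For *Gkn1* and *Gkn2* alike they were *Aldh3a1* (0.9908 and 0.9901), *Sh3rf2*, *Slc5a5*, *Gsta1* and *Sptssb*. *Aldh3a1*, an aldehyde dehydrogenase, was at 2242 and 1963 CPM in mature pit, 945 and 1002 in pre-pit, 439 and 286 in isthmus and 10.4 and 15.2 in neck cells. It thus ran down the same order of types as *Gkn1*.

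For *Tff2* the most like genes were *Ugt2b34* (r = 0.971), *Gstt1*, *P3h4*, *Fads3* and *Plxna2*. *Ugt2b34*, a glucuronosyltransferase, was at 773 and 712 CPM in mature pit, 742 and 794 in pre-pit, 590.0 and 609 in isthmus, 396 and 386 in neck, 168 and 196 in chief and 41.1 and 42.7 in parietal cells, and did not share the lower level of *Tff2* in mature pit cells. For *Gkn3* they were *Smoc2* (0.888), *F5*, *Mmp14*, *D430040D24Rik* and *Rcn3*, at lower r. *Smoc2*, a secreted matricellular protein, was at 61.6 and 85.5 CPM in cluster 12, at 9.78 and 23.0 in cluster 0, at 4.52 and 10.99 in cluster 7 and at 1.83 and 0.804 in cluster 2. For *Tff3*, with 263 UMIs in these clusters, the highest r was 0.825 (*Cnot11*) at a depth of few UMIs per sum. Among the members themselves *Gkn1* and *Gkn2* had r = 0.999, *Tff1* and *Gkn1* 0.9896, *Tff1* and *Tff2* 0.777, and *Gkn2* and *Gkn3* -0.16.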

How the data were processed

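The authors made the count tables with bcl2fastq 2.20.0.422 and, per the methods of the study, STAR, Drop-seq tools and FASTX-Toolkit, against GRCm39 and GENCODE M27. The deposited values are raw counts of UMIs per gene and well, before any normalisation, and the deposited percent columns of the cell tables hold the share of mitochondrial UMIs and were not used. The authors kept wells with at least 2500 genes and deposited the cluster of each cell; cluster names came from the text of the study, and other clusters were named from fixed markers. Doublets were not called here. Plates held 3054370 to 5346035 UMIs in dataset 1 and 10540256 to 12850942 in dataset 2.

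Counts were summed by type or cluster and pool, filtered with edgeR's filterByExpr and fitted over all types of a dataset with edgeR 4.0.16 (TMM, quasi-likelihood test, Benjamini-Hochberg adjustment) in R 4.3.3. DESeq2 1.42.0 was an alternative. The fits held 13894, 12922 and 10229 genes and included all 6 members, and no fold change is given where both groups together held fewer than 60 UMIs. Shares have 95% Clopper-Pearson intervals and a count of 0 a limit of 3, both for counting error only. Other alternatives were RLE scaling, no filter, the pool as a block, plates as the unit, library sizes without the members and mitochondrial genes, cells with at least 4000 genes, and each plate or pool left out.

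Within a pool all types were taken from the same mice, which pairs them. Deviations of types from their means had a median correlation of 0.0245 over the 21 pairs of types in dataset 1 (-0.0285 to 0.0533) and of 0.1316 over the 15 in dataset 2 (0.0689 to 0.4107).

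The genes named are the 6 members, the 5 genes most like each, and the genes past the test in lists of other BRICHOS-domain genes, other trefoil-domain genes, mucus partners, proposed trefoil receptors and gastric epithelial factors, with markers of cell types. Members and lists were chosen with earlier results of these data known.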

Additional observations from a re-analysis of the deposited data

Results flagged for a closer look

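Of 53 groups of 6 plates (1 gene, type and pool of dataset 2), 10 had a plate far from the others, where chance gives about 1 in 20. In chief cells of pool T, plate 2 (16 cells) held 1089 CPM of *Gkn1* and 1197 of *Gkn2*, against medians of 351 and 397 on the other plates. In neck cells of pool K, plate 6 (122 cells) held 630.4 CPM of *Gkn1* and 718 of *Gkn2*, against 315 and 350.1. In parietal cells of pool T, plate 4 (54 cells) held 557 CPM of *Gkn1* and 443 of *Tff1*, against 264 and 248. These values of *Tff1*, *Gkn1* and *Gkn2* are in types read as background. In isthmus cells of pool T, plate 3 (140 cells) held 288 CPM of *Gkn3* against 22.2, and it holds the cell with 1034 *Gkn3* UMIs described for cluster 11. The other plates were low: *Gkn1* was at 10595 CPM against 12373 in isthmus cells of pool K on plate 3 (100 cells) and at 41563 against 49114 in mature pit cells of pool K on plate 6 (10 cells), and *Tff2* at 18581 against 21826 in pre-pit cells of pool T on plate 2 (22 cells).

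Wells that were sequenced but are outside the annotation also held the members. The 1813 such wells of dataset 1, with 3016503 UMIs together, held 10014 CPM of *Tff1*, 2431 of *Tff2*, 230.1 of *Tff3*, 7164 of *Gkn1*, 8501 of *Gkn2* and 232 of *Gkn3*. The 615 wells of dataset 2, with 1654145 UMIs, held 3813 CPM of *Tff1*, 2179 of *Tff2*, 3771 of *Gkn1*, 4019 of *Gkn2* and 26.6 of *Gkn3*. All of these were above the level in parietal cells of the same dataset. In dataset 1, 2 of the wells held 215 and 418 *Tff3* UMIs, with 53 and 143 of *Muc2*.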

How the results depend on the processing

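Of 32 called fold changes of the members, none changed direction under any alternative that gave a value, and 226 of 227 values from other settings and 333 of 354 with a plate or pool left out stayed called. Those lost by leaving out are named in the report. Alternatives in which a member gave no fold change are not counted. With a plate or pool left out, *Tff3* had 4 values for antrum maturation, where *Gkn1* had 8. It also had 4 for antrum against corpus pit cells, where *Gkn1* had 8, and 12 for chief against neck cells, where *Gkn1* had 14. Of 29 fold changes not called, 25 of 204 values passed the threshold in other settings and 12 of 318 with a plate or pool left out. Reversals were among fold changes not called: *Tff3* between pre-pit and isthmus cells was -0.049 without the filter and -0.058 without the cell with most of its UMIs in each group and pool, an alternative chosen after seeing the data, *Tff1* between chief and neck cells was -0.052 without the filter, and *Tff3* in cluster 11 was -0.028 in cells with at least 4000 genes. With a plate or pool left out, log2 fold changes that changed sign ranged from -0.32 to 0.079 (*Tff2*, antrum mature against pre-pit), -0.37 to 0.057 (*Tff2*, dataset 1 neck against isthmus-like), -0.29 to 0.31 (*Tff1*, chief against neck), -0.0090 to 0.35 (*Gkn1*, cluster 12), -1.71 to 0.70 (*Gkn3*, pre-pit against isthmus) and -0.20 to 0.14 (*Tff3*, the same), and in cluster 11 from -0.16 to 0.58 (*Gkn1*), -0.20 to 0.46 (*Gkn2*), -0.038 to 0.26 (*Tff1*) and -0.50 to 0.27 (*Tff3*). Genes called over the whole table moved by more than 1.5 times with DESeq2 in dataset 1, to 665 for corpus and 684 for antrum maturation, 11 for the interaction, 548 for antrum against corpus and 1458 for neck against isthmus-like cells, from 1324, 1426, 3, 947 and 2998. The interaction called 97 without the filter, and plates as the unit gave 2594 for mature pit against pre-pit cells of dataset 2 in place of 1439. With a plate or pool left out these counts of dataset 1 ranged from 199 to 1310, 460 to 1296, 0 to 7, 360 to 837 and 1430 to 2879. The cause was not tested. With the pool as a block the interaction called 12 genes, *Tff2* at 1.29 and *Tff3* at -12.11 among them, *Gkn2* passed between mature pit and pre-pit cells (0.70), and no other call of a member changed. Several types of dataset 1 held 13 to 31 cells in a pool, and the part of depth and cell number in these results was not tested. A level of *Tff3* or *Gkn3* moved by over 1.5 times in 18 of 228 values with 1 plate left out, against 4 of 456 for the other members.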
